A study of Mus musculus with 20 samples.

Results

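The collagen genes outside type IV were followed through 5 states of mouse embryonic stem (ES) cell differentiation. The members are the genes whose single platform symbol has the form Col, a number, a and a number, with the type IV chains left out. There were 36 such genes among 18194 genes measured, each read from its brightest probe set by mean level. By structure 11 of the 36 encode fibrillar chains, 9 fibril-associated collagens, 5 beaded filament (type VI) chains, 4 transmembrane collagens, 3 short-chain network collagens and 2 multiplexins, and 2 stand alone.

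The data are log2 levels from 20 Affymetrix MOE430v2 arrays, with 10 groups of 2 arrays. The wild-type (WT) line was J1 and the mutant line (DKO) lacked both Dnmt3a and Dnmt3b, the de novo DNA methyltransferases (Dnmt3a-/-Dnmt3b-/-). ES cells, primitive endoderm, Dex- cells and Dex+ cells of both genotypes carried Gata4GR, a fusion of the endoderm and heart factor Gata4 with the hormone-binding part of the human glucocorticoid receptor, driven by a CAG promoter, so that dexamethasone (Dex) activates it. ES cells had no Dex. Primitive endoderm (PE) came from the same ES cells after 4 days with 100 nM Dex. Flk1+ mesoderm, positive for both Flk1 and PDGFRα, was sorted from cells differentiated on type IV collagen, and its replicate 1 arrays came from the parental lines without Gata4GR while its replicate 2 arrays came from the transgenic clones. Dex- and Dex+ cells were sorted mesoderm kept for 4 more days without or with 100 nM Dex. They were separate cultures, so a rise or fall with Dex means a higher or lower level in Dex+ than in Dex- cells. Each genotype was represented by 1 transgenic clone, so genotype and clone cannot be told apart. No array held cells given Dex without Gata4GR, so effects of Gata4GR and other effects of Dex cannot be told apart either.

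Collagens are secreted proteins in which 3 chains wind into a helix. Fibrillar chains of types I, III, V and XI form the banded fibrils that fibroblasts, smooth muscle cells and bone cells deposit, and fibril-associated collagens sit on their surface. Type VI forms beaded filaments near cells, type VIII forms sheets around vessels, type XVIII is a basement membrane collagen, and types XIII and XXIII span the cell membrane. Primitive endoderm of the embryo makes basement membrane, whose network is type IV collagen, rather than fibrils.

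Dnmt3a and Dnmt3b were lower on every DKO array than on every WT array of the same state. Dnmt3a lay between 6.18 and 6.83 on the DKO arrays and between 7.46 and 9.44 on the WT arrays. The 2 arrays of a group correlated between 0.979 and 0.996 across genes, and the lowest value was that of WT Flk1+ mesoderm, in which 880 genes were over 2-fold apart. The WT Flk1+ array of replicate 1 came from the parental line and its results are given with and without it. The 10th percentile of gene levels was 4.15 and the median 6.85, and no detection limit was available. In bulk RNA, fewer cells of one kind and less RNA per cell cannot be told apart.

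**Figure D1:**
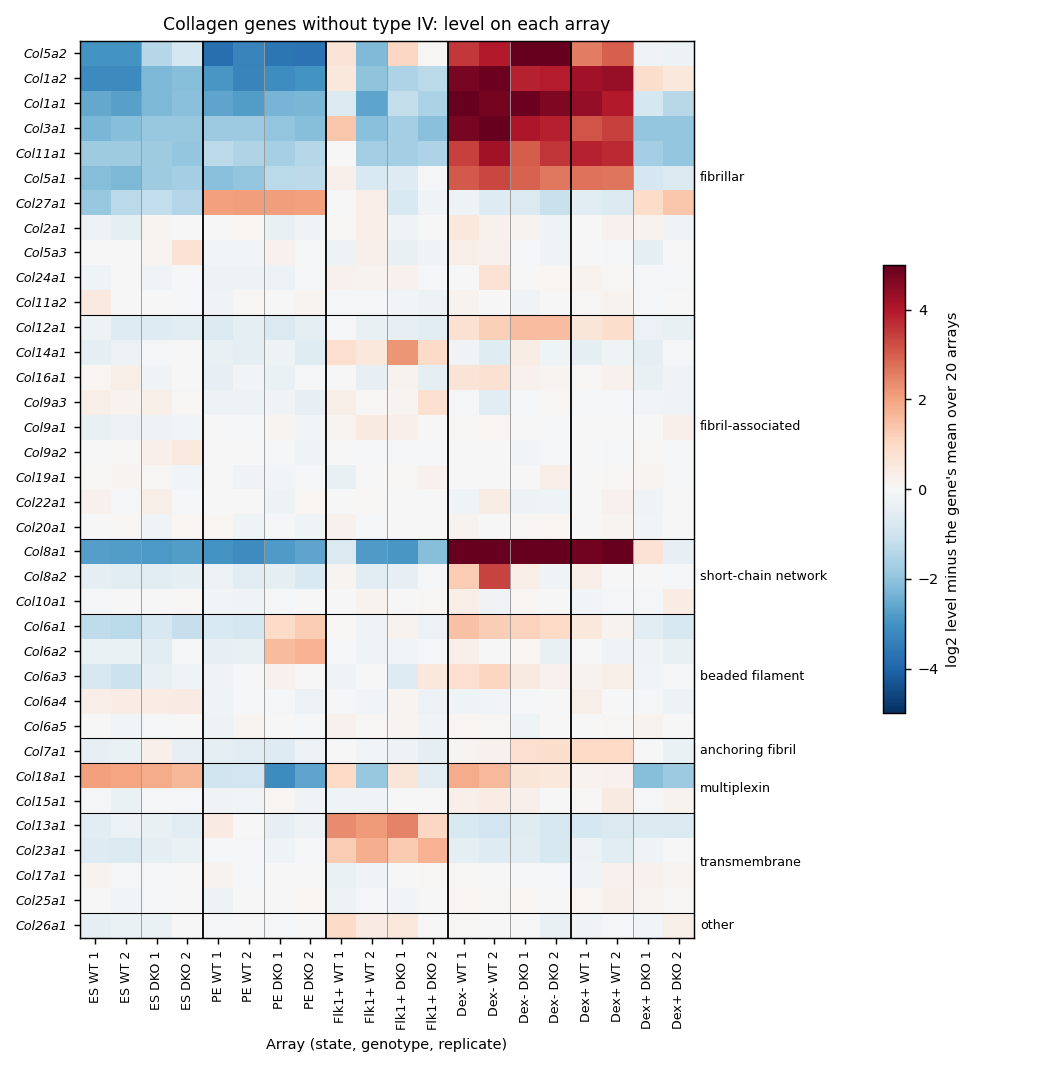
Level of each of the 36 collagen genes (rows, grouped by structural class) on each of the 20 arrays (columns), as the log2 level minus the gene's mean over the 20 arrays; colours stop at 5 in either direction. The 6 fibrillar chains Col1a1, Col1a2, Col3a1, Col5a1, Col5a2 and Col11a1 and Col8a1 are high on the Dex- arrays of both genotypes and on the WT Dex+ arrays, and lower than these on the DKO Dex+ arrays, where Col1a2, at 10.39 and 10.03, stays above its mean.

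A gene was called changed in a comparison when its adjusted p was below 0.05 over all 18194 genes (limma, Benjamini-Hochberg) and its change was at least 2-fold, a log2 change of 1. Of the 36 collagens, 17 were called in 3 or more of the 15 planned comparisons or in a comparison between genotypes, and these are described in full. Another 2 were called once, and 17 were called in none. The plot of levels by array shows the main patterns, which are taken in turn below: a group of fibril-forming and associated chains tied to mesoderm culture, Col27a1 tied to primitive endoderm, a pair of type VI chains raised in DKO primitive endoderm, and membrane collagens tied to Flk1+ mesoderm.

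The promoters of the collagens that moved together differ widely in CpG dinucleotides, the sites that Dnmt3a and Dnmt3b methylate, and so they are shown before the values. RefSeq windows of 300 bases, from 250 before to 50 after the start site on GRCm38.p6, were found for 28 of the 36 collagens and for 13 of the 17 described in full. Capitals mark each CpG. The first 3 windows belong to fibrillar chains that fell with Dex in DKO cells, the next 2 to the type VI chains raised in DKO primitive endoderm, and the last to Col27a1, which moved the other way.
Col3a1, chr1:45311288-45311587, plus strand: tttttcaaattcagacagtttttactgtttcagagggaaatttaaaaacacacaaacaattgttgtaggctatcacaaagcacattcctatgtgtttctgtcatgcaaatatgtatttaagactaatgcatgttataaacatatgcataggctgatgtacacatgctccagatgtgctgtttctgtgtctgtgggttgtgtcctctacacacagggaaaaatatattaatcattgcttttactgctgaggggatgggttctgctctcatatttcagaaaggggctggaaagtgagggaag
Col1a2, chr6:4505368-4505667, plus strand: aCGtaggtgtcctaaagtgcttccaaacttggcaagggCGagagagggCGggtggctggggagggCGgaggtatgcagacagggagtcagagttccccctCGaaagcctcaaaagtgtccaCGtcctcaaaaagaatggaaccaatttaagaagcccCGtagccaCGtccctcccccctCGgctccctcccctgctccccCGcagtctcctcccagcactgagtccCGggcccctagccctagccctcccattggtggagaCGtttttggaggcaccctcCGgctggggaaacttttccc
Col5a1, chr2:27886175-27886474, plus strand: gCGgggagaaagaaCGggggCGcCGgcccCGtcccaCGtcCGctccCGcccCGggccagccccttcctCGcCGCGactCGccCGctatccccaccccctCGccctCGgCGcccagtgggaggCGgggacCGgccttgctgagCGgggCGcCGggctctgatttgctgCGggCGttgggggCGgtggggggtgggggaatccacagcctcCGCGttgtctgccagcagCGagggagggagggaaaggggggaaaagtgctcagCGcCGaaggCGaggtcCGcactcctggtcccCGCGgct
Col6a1, chr10:76725995-76726294, minus strand: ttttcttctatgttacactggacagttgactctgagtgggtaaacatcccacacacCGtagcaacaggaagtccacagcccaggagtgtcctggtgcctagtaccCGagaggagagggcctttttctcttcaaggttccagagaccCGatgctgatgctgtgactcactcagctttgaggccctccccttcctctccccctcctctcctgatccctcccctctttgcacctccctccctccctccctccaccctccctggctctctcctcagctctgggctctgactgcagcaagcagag
Col6a2, chr10:76623581-76623880, minus strand: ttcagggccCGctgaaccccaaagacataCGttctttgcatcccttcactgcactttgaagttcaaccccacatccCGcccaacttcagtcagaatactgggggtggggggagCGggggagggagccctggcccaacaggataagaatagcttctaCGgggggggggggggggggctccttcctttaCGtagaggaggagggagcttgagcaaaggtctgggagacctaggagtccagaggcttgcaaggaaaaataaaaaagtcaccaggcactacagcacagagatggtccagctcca
Col27a1, chr4:63215162-63215461, plus strand: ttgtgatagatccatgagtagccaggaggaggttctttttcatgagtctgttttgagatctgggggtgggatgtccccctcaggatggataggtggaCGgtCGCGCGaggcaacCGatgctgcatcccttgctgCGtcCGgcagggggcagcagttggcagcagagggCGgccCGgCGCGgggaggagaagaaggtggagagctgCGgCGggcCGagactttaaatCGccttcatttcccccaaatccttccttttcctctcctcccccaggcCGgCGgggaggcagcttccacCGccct
The Col3a1 window held 0 CpG, that of Col1a2 13 and that of Col5a1 34. Other windows of chains with a lower Dex response in DKO cells lay between, at 12 for Col7a1, 12 for Col8a1 and 9 for Col11a1. No window was found for Col1a1, Col5a2 or Col12a1, which also had a lower response. Over 32851 RefSeq windows the median was 7 CpG and the quartiles were 3 and 20, so the Col5a1 window held more than 92.3% of them. The Col6a1 window held 3, the Col6a2 window 6 and the Col27a1 window 18. The only Col27a1 window lies inside the gene model, which begins at 63214009, and so not at the first base of that model. The Gata motif was searched only as AGATAA and TGATAA, on both strands. These forms were in 18.6% of all windows and in 2 of the 28 collagen windows. Those were the windows of Col11a2 and Col17a1, neither of which was called in any comparison. Forms ending in G were not counted. TGATAG is in the Col27a1 window above and, on the other strand, in the Col3a1 window. DNA methylation was not measured on these arrays.

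When sorted mesoderm was cultured without Dex, collagens rose in both genotypes. In WT cells 12 of 36 rose and 3 fell, beside 7.49% and 7.79% of all genes tested. In DKO cells 10 rose and 3 fell, beside 8.23% and 8.39% of all genes. The risers shared by both genotypes were Col1a1, Col1a2, Col3a1, Col5a1, Col5a2, Col6a1, Col8a1, Col11a1 and Col12a1. The median change over the 36 collagens was 0.24 in WT and 0.11 in DKO cells, against 0.012 and 0.028 over all genes.

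Col1a1, the main chain of type I collagen, was at 7.75 and 5.82 on the WT Flk1+ arrays and at 13.76 and 13.24 on the WT Dex- arrays. In DKO cells it was at 7.28 and 6.88 and then at 13.38 and 13.12. The Flk1+ and Dex- groups were far apart in both genotypes, with a log2 change of 6.72 ± 0.42 (SE) in WT and 6.17 ± 0.42 in DKO cells (adjusted p = 3.06e-08 and 7.84e-08).

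Col1a2, its partner chain, was at 10.03 and 7.51 on the WT Flk1+ arrays and at 14.27 and 14.40 on the Dex- arrays. The DKO arrays read 7.97 and 8.18 and then 13.37 and 13.43. It therefore rose by 5.57 ± 0.49 and 5.33 ± 0.49, with no overlap between the states.

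Col3a1, which forms fibrils with type I collagen in soft tissue, was at 7.76 and 4.28 on the WT Flk1+ arrays and at 11.13 and 11.52 on the WT Dex- arrays. On the DKO arrays it was at 4.70 and 4.29 and then at 10.43 and 10.29. The 2 WT Flk1+ arrays were over 3 log2 units apart, so the WT change of 5.31 ± 0.67 rests on unequal starting points. Between the 2 arrays scanned on the same day it was 3.37, with the Flk1+ array from the parental line without Gata4GR.

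The type V chains start and limit the width of type I fibrils. Col5a1 was at 9.83 and 8.82 on the WT Flk1+ arrays, at 12.66 and 12.91 on the WT Dex- arrays, at 8.93 and 9.49 on the DKO Flk1+ arrays and at 12.52 and 12.21 on the DKO Dex- arrays. Col5a2 was at 9.37 and 6.53, 12.26 and 12.69, 9.77 and 8.80, and 14.03 and 13.99 in the same order. Col5a2 lies next to Col3a1 on chromosome 1, with 24.6 kb between the gene models, from 45311538 to 45349706 for Col3a1 and from 45374331 to 45503282 for Col5a2 on GRCm38.p6. Both chains rose in both genotypes, Col5a1 by 3.46 ± 0.25 and 3.15 ± 0.25 and Col5a2 by 4.52 ± 0.59 and 4.73 ± 0.59. The DKO Dex- arrays were the highest of all 20 for Col5a2.

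Col11a1, a fibrillar chain of cartilage and of type V-like fibrils elsewhere, was at 6.35 and 4.60 on the WT Flk1+ arrays and at 9.78 and 10.53 on the WT Dex- arrays. In DKO cells it was at 4.65 and 4.79 and then at 9.38 and 9.91. Cartilage and bone markers did not move with it: none of the 6 measured genes of that list was called in either genotype, and their mean stayed between 5.11 and 5.36 on all 20 arrays.

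Col8a1, a chain of the vessel-wall collagen type VIII, rose the most of the family. It was at 7.09 and 4.97 on the WT Flk1+ arrays, at 12.90 and 13.24 on the WT Dex- arrays, at 4.89 and 5.69 on the DKO Flk1+ arrays and at 12.88 and 13.22 on the DKO Dex- arrays. The changes were 7.04 ± 0.50 and 7.76 ± 0.50 on the log2 scale. Col12a1, a fibril-associated collagen, rose less, from 7.17 and 6.88 to 8.01 and 8.45 in WT cells and from 6.82 and 6.70 to 8.77 and 8.80 in DKO cells. Its probe sets disagreed, since a second one changed more than the one used here, as given with the Dex response.

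Col6a1, the α1 chain of type VI collagen, rose from 6.56 and 6.30 to 7.95 and 7.74 in WT cells and from 6.66 and 6.22 to 7.66 and 7.50 in DKO cells. The rise was 1.42 ± 0.19 and 1.14 ± 0.19, and in DKO cells it was under 2-fold without DKO Flk1+ replicate 2 (0.92). Its partner chain Col6a2 changed by less than the threshold in both genotypes, and Col6a3 rose in WT cells by 1.06 ± 0.26 (adjusted p = 0.00513), which was under 2-fold, at 0.96 without WT Flk1+ replicate 1 and at 0.95 without WT Dex- replicate 2.

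Col7a1, the anchoring fibril collagen under epithelia, was at 6.90 and 6.67 on the DKO Flk1+ arrays and at 7.97 and 8.03 on the DKO Dex- arrays, a rise of 1.22 ± 0.19. On the WT arrays it was at 7.13 and 6.99 and then at 7.29 and 7.36, and it was not called.

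No collagen was called in the difference between the genotypes in this change, beside 1.82% of all genes with a higher and 1.08% with a lower change in DKO cells. At an unadjusted p below 0.05 there were 4 of 36 collagens, beside 2516 of all 18194 genes. The differences depended on single arrays. That of Col3a1 was 0.56 with all arrays, -1.19 without WT Flk1+ replicate 1 and 2.3 without WT Flk1+ replicate 2. That of Col1a2 was -0.24, -1.5 and 1.02 in the same order. The difference of Col13a1 went from 0.64 to 1.36 without DKO Flk1+ replicate 1. For Col8a2 it went from -2.22 to -3.26 without WT Dex- replicate 1. Of the collagens called in culture, 13 of 15 in WT and 13 of 13 in DKO cells changed by at least 2-fold in the same direction between the arrays of replicate 1 alone, which were scanned on the same day. The exceptions were Col12a1 at 0.84 and Col18a1 at 0.87. In these pairs the Flk1+ array came from the parental line and the Dex- array from the transgenic clone, so state and line differed together.

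**Figure D2:**
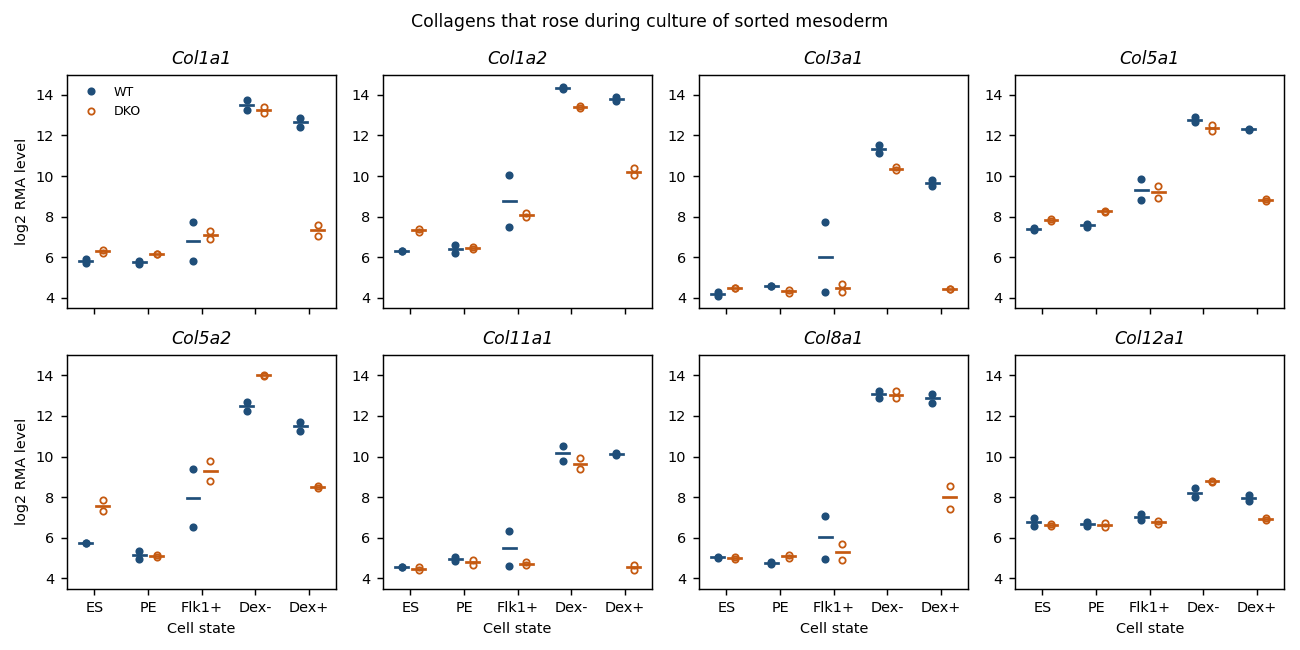
Log2 level (vertical axis) of 8 collagens in the 5 states (horizontal axis), each point 1 array and each bar the mean of 2, with WT filled and DKO open. All 8 are high in Dex- cells of both genotypes and in WT Dex+ cells, and the DKO Dex+ points lie below all of these, for Col1a1 at 7.59 and 7.06.

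With Dex, in DKO cells 11 of 36 collagens fell and 1 rose, beside 4.99% and 4.64% of all genes tested. In WT cells 2 fell, Col6a1 and Col8a2, and none rose, beside 0.451% and 1.15% of all genes. The fall of Col6a1, -1.02 ± 0.19, was not called without WT Dex- replicate 1 (-0.92, adjusted p = 0.0891) or WT Dex+ replicate 2 (-0.84, adjusted p = 0.117), with the scan day as a block (-0.92) or with only the groups compared (adjusted p = 0.0935). The difference of the 2 responses was tested directly and was called for 10 collagens, 9 with a lower response in DKO cells and 1 with a higher one, beside 3.13% and 2.73% of all genes. The 9 were Col1a1, Col1a2, Col3a1, Col5a1, Col5a2, Col7a1, Col8a1, Col11a1 and Col12a1, and the 1 was Col27a1. The 9 were picked by this difference, so their changes in each genotype describe it and are not a separate test. Among the 9, the change with Dex had a median of -0.49 in WT cells, from -1.66 to 0.81 and below 0 for 8. In DKO cells the median was -5.06, from -5.92 to -1.03. None of the 9 was called in WT cells, which does not show that they did not change, and Col3a1, at -1.66, was called there with only the groups compared (adjusted p = 0.0277). The comparison of DKO with WT Dex+ cells shares the DKO Dex+ arrays with these, and there 11 collagens were lower and 1 higher, beside 4.83% and 4.81% of all genes. All 12 collagens called in the DKO response kept a change of at least 2-fold when the Dex- array was taken from the scan day of the Dex+ arrays alone.

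Col1a1 was at 12.86 and 12.43 on the WT Dex+ arrays and at 7.59 and 7.06 on the DKO Dex+ arrays. The groups were over 4 log2 units apart, and the DKO arrays lay within the range of the Flk1+ arrays. Its log2 response was -0.86 in WT and -5.92 ± 0.42 in DKO cells, a difference of -5.06 ± 0.59 (adjusted p = 8.46e-05).

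Col3a1 was at 9.53 and 9.80 on the WT Dex+ arrays and at 4.43 and 4.46 on the DKO Dex+ arrays, which are close to its lowest levels. The response was -1.66 in WT and -5.92 ± 0.67 in DKO cells, and the difference was -4.25 ± 0.94 (adjusted p = 0.012). Without WT Dex- replicate 1 the difference was -4.06 with an adjusted p of 0.0538.

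Col11a1 was at 10.20 and 10.09 on the WT Dex+ arrays and at 4.65 and 4.43 on the DKO Dex+ arrays. Its WT level was thus as high as without Dex, and its DKO level as low as in ES cells, where it was at 4.56 and 4.40. The difference of the responses was -5.10 ± 0.55 (adjusted p = 4.55e-05).

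Col5a1 was at 12.32 and 12.27 with Dex in WT and at 8.75 and 8.88 in DKO cells, and Col5a2 at 11.27 and 11.71 in WT and at 8.57 and 8.46 in DKO cells. The groups did not overlap for either chain. The responses differed by -3.06 ± 0.36 for Col5a1 and by -4.51 ± 0.84 for Col5a2 (adjusted p = 8.46e-05 and 0.0036).

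Col8a1 was at 12.66 and 13.07 on the WT Dex+ arrays and at 8.55 and 7.42 on the DKO Dex+ arrays. Col1a2 was at 13.72 and 13.87 in WT and at 10.39 and 10.03 in DKO cells. These 2 genes were less far below their DKO Dex- levels than Col1a1 or Col3a1. Their DKO Dex+ levels were above those of DKO Flk1+ mesoderm, by 2.70 ± 0.50 for Col8a1 and by 2.14 ± 0.49 for Col1a2. Against the same mesoderm Col1a1 differed by 0.25, Col3a1 by -0.05 and Col11a1 by -0.18, none of them called. The differences of their responses were -4.86 ± 0.70 and -2.65 ± 0.70 (adjusted p = 0.000553 and 0.0313). For Col1a2 that call did not hold when any 1 of the 8 arrays was left out, with adjusted p values between 0.058 and 0.12 and differences between -2.83 and -2.47, and with the mean over its probe sets it was -1.46 with an adjusted p of 0.11.

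Col12a1 was at 7.83 and 8.11 on the WT Dex+ arrays and at 6.95 and 6.87 on the DKO Dex+ arrays, and its responses differed by -1.62 ± 0.25. A second probe set of the gene gave a difference of -3.78, while the remaining 2 gave 0.06 and 0.09. Those 2 were dim, with group means between 3.81 and 4.21. Col7a1 was at 8.14 and 8.13 in WT and at 7.13 and 6.82 in DKO cells, and its responses differed by -1.84 ± 0.26, with 0.81 in WT and -1.03 in DKO cells. The DKO fall of Col7a1 alone was under 2-fold without DKO Dex- or DKO Dex+ replicate 2.

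Of Col1a2 a second probe set gave a response difference of -2.53 and another one of 0.81, opposite in sign. The latter was dim, with group means between 3.53 and 3.94 in ES cells, primitive endoderm and Flk1+ mesoderm. In DKO cells it was at 4.92 without and 4.46 with Dex, and in WT cells at 6.37 and 5.09. The other probe sets of Col5a1 gave -3.26 and -1.98. Second probe sets of Col1a1, Col3a1, Col11a1, Col5a2 and Col8a1 moved the same way as those used, with differences of -2.49 for Col1a1, -1.44 for Col3a1, -6.30 for Col11a1, -3.77 for Col5a2 and -2.69 for Col8a1.

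**Figure D3:**
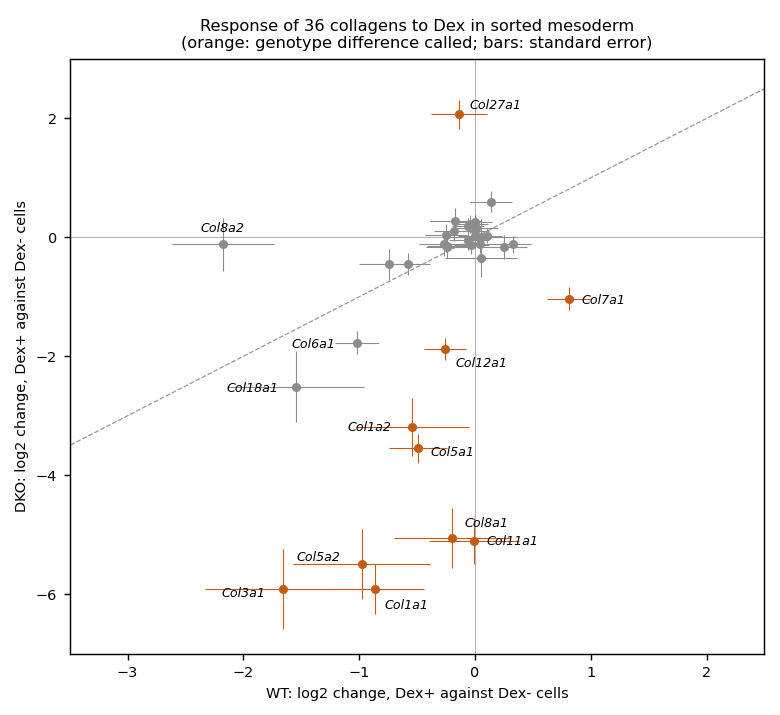
Log2 change with Dex in sorted mesoderm for each of the 36 collagens, in WT cells (horizontal axis) and DKO cells (vertical axis), with standard errors as bars and a dashed line where both are equal. The 10 collagens whose responses were called different are orange; 9 lie below the line and Col27a1 lies above it, at 2.07 in DKO cells.

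Col27a1, a fibrillar-type chain with a short helix, moved against the others. It was at 8.09 and 7.92 on the WT Dex+ arrays and at 9.51 and 9.98 on the DKO Dex+ arrays, and without Dex it was at 8.34 and 7.95 in WT and at 7.87 and 7.49 in DKO cells. The DKO response was 2.07 ± 0.24 and differed from that of WT by 2.20 ± 0.34 (adjusted p = 0.000906). It was also the only collagen that rose in primitive endoderm of both genotypes. On the ES arrays it was at 6.71 and 7.27 in WT and at 7.37 and 7.15 in DKO cells, and on the primitive endoderm arrays at 10.64, 10.69, 10.71 and 10.66. The 4 primitive endoderm arrays thus lay within 0.07 of one another and above all other arrays, and the changes were 3.67 ± 0.24 and 3.43 ± 0.24. A second probe set gave a response difference of 1.90.

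The levels of DKO Dex+ cells were set beside those of primitive endoderm, a comparison added after the values were seen. Of the 36 collagens 3 were higher in DKO Dex+ cells, Col1a2 by 3.74 ± 0.49, Col5a2 by 3.44 ± 0.59 and Col8a1 by 2.91 ± 0.50, and 2 were lower, Col6a1 and Col6a2, beside 2.73% and 1.74% of all genes. Col1a1 was at 6.14 and 6.17 on the DKO primitive endoderm arrays against 7.59 and 7.06 on the DKO Dex+ arrays, a difference of 1.17 that was not called (adjusted p = 0.115). Against DKO Flk1+ mesoderm, also added afterwards, 3 collagens were higher in DKO Dex+ cells and 4 lower, beside 7.37% and 6.7% of all genes.

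Col6a1 and Col6a2 were raised in DKO primitive endoderm. They were the only 2 collagens called between the genotypes in primitive endoderm, both higher in DKO cells and none lower, beside 1.13% and 0.824% of all genes. The 2 genes lie 85.2 kb apart on chromosome 10, Col6a2 from 76595756 to 76623630 and Col6a1 from 76708792 to 76726044 on GRCm38.p6, both on the minus strand. Their proteins join with the Col6a3 chain, encoded on chromosome 1, into the type VI unit.

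Col6a1 was at 5.72 and 5.63 on the WT primitive endoderm arrays and at 7.46 and 7.76 on the DKO arrays, a difference of 1.93 ± 0.19 (adjusted p = 2.03e-05). Col6a2 was at 6.81 and 6.85 in WT and at 8.77 and 8.96 in DKO primitive endoderm, a difference of 2.04 ± 0.17 (adjusted p = 4.52e-06). The DKO arrays of Col6a2 were the highest of all 20, and the other 18 lay between 6.67 and 7.44. Col6a3 was between 5.82 and 6.21 in primitive endoderm of both genotypes and was not called, at 0.22.

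In ES cells the 2 genes differed little, with Col6a1 at 5.22 and 5.16 in WT and at 5.70 and 5.35 in DKO cells. The genotype difference in the step from ES cells to primitive endoderm was tested afterwards and was called for these 2 collagens and no other, at 1.60 ± 0.26 for Col6a1 and 2.01 ± 0.24 for Col6a2 (adjusted p = 0.00507 and 0.000548), beside 0.511% of all genes with a higher and 0.846% with a lower step in DKO cells. Col6a1 went the other way with Dex in mesoderm. It was at 7.01 and 6.65 on the WT Dex+ arrays and at 5.92 and 5.70 on the DKO Dex+ arrays, 1.02 ± 0.19 lower in DKO cells, which was under 2-fold without WT Dex+ replicate 1 or DKO Dex+ replicate 2. Col6a2 was at 7.17 and 6.99 and at 7.0 and 6.85 there. The genotype effect in primitive endoderm exceeded that in Dex+ cells by 2.95 ± 0.26 for Col6a1 and by 2.19 ± 0.24 for Col6a2, a test also added afterwards, in which 11 collagens were called higher and 1 lower beside 3.27% and 3.53% of all genes. Both added tests share the primitive endoderm arrays by which the 2 genes were picked. The second also shares the Dex+ arrays, so neither is a separate test. A second probe set of Col6a2, which can bind related sequences, gave 1.02 in primitive endoderm.

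**Figure D4:**
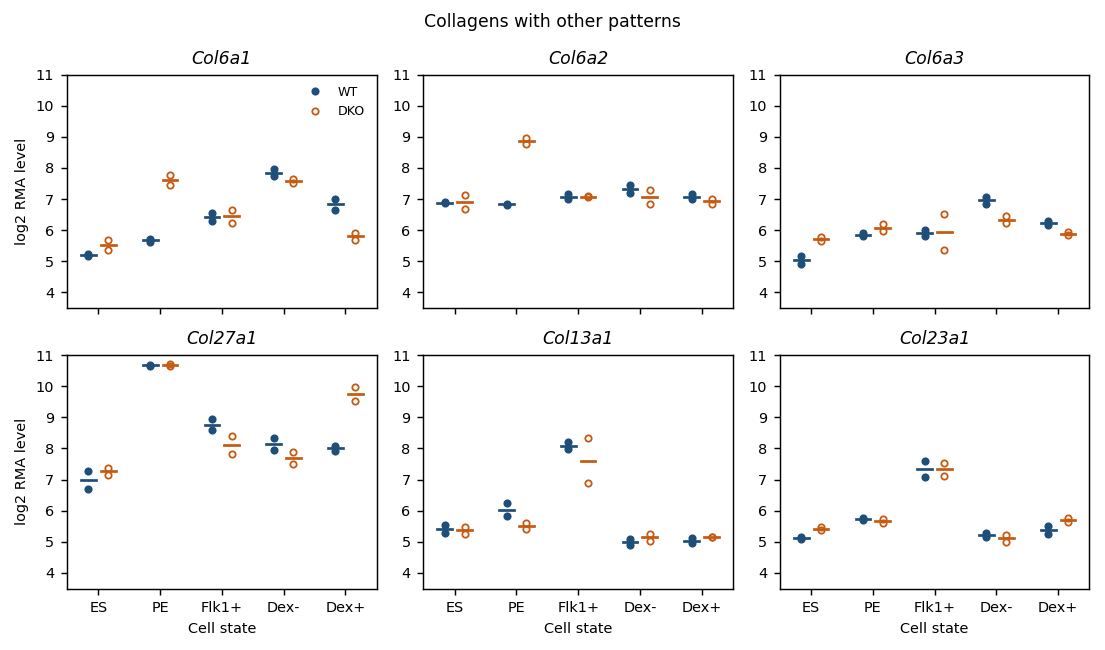
Log2 level (vertical axis) of 6 collagens in the 5 states (horizontal axis), each point 1 array and each bar the mean of 2, with WT filled and DKO open. Col6a1 and Col6a2 are higher in DKO than in WT primitive endoderm, Col27a1 is highest in primitive endoderm and in DKO Dex+ cells, and Col13a1 and Col23a1 are highest in Flk1+ mesoderm.

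From ES cells to Flk1+ mesoderm 9 collagens rose and 1 fell in WT cells, beside 6.15% and 6.3% of all genes, and 4 rose and none fell in DKO cells, beside 4.56% and 5.62%. Col13a1, Col14a1, Col23a1 and Col5a1 rose in both genotypes. The first 3 were also the 3 collagens that fell in culture without Dex in both genotypes, so that their highest levels were those of sorted mesoderm.

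Col13a1, a membrane collagen of cell junctions, was at 8.21 and 7.97 on the WT and at 8.32 and 6.88 on the DKO Flk1+ arrays. It was between 4.89 and 6.24 on the other 16 arrays, below every Flk1+ array. The rise was 2.67 ± 0.31 in WT and 2.23 ± 0.31 in DKO cells, and the fall in culture was -3.11 and -2.46.

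Col23a1, another membrane collagen, was at 7.08 and 7.6 on the WT and at 7.11 and 7.54 on the DKO Flk1+ arrays, and between 4.99 and 5.78 elsewhere. The rise was 2.22 ± 0.18 in WT and 1.90 ± 0.18 in DKO cells. The WT and DKO Flk1+ arrays overlapped.

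Col14a1, a fibril-associated collagen, was at 6.07 and 5.75 on the WT and at 7.45 and 6.19 on the DKO Flk1+ arrays, and between 4.61 and 5.59 elsewhere. The 2 DKO arrays were over 1 log2 unit apart. The rise was 1.04 ± 0.31 in WT and 1.64 ± 0.31 in DKO cells (adjusted p = 0.0229 and 0.00142), and the WT call was lost when WT Flk1+ replicate 1 or either WT ES array was left out. The fall in culture was -1.08 in WT and -1.52 in DKO cells, and it was not called in WT cells without WT Flk1+ replicate 1 (-0.92) or WT Dex- replicate 2 (-0.87), nor in DKO cells without DKO Flk1+ replicate 1 (-0.89). With the mean over probe sets the falls were -0.39 and -0.61, neither of them called.

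The WT Flk1+ arrays disagreed on the fibrillar chains. Replicate 1, from the parental line without Gata4GR, was higher than replicate 2 for Col1a1, Col1a2, Col3a1, Col5a1, Col5a2, Col8a1, Col11a1 and Col18a1, and for Col3a1 it was at 7.76 against 4.28. WT Flk1+ mesoderm against ES cells had 10 called collagens with both arrays. There the change of Col3a1 was 1.84 with both arrays and 3.58 without replicate 2, and that of Col1a1 0.97 and 1.93. No collagen was called between the genotypes in Flk1+ mesoderm, beside 0.396% of all genes higher and 0.302% lower in DKO cells. An unadjusted p below 0.05 was found for 4 of 36 collagens, beside 2375 of all 18194 genes. The genotype differences depended on single arrays. That of Col5a2 was 1.33 with all arrays and 2.75 without WT Flk1+ replicate 1. That of Col3a1 was -1.52 with all arrays and -3.27 without WT Flk1+ replicate 2. Col13a1 went from -0.49 to -1.21 without DKO Flk1+ replicate 1, and Col14a1 from 0.91 to 1.54 without DKO Flk1+ replicate 2. Parental line, scan day and replicate number cannot be told apart here.

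Col18a1, the basement membrane collagen from which endostatin is cut, had its highest levels in ES cells, at 11.36 and 11.29 in WT and at 11.14 and 10.95 in DKO cells. It fell in primitive endoderm, to 8.31 and 8.33 in WT and to 6.16 and 6.66 in DKO cells, by 3.01 ± 0.59 and 4.63 ± 0.59 on the log2 scale. The difference between the genotypes in primitive endoderm was -1.91 ± 0.59 and was not called (adjusted p = 0.109). With the replicate numbers of each state as a block it was called, with an adjusted p of 0.00528. In culture Col18a1 was at 11.15 and 10.93 on the WT and at 9.89 and 9.81 on the DKO Dex- arrays, and at 9.48 and 9.50 on the WT and at 7.17 and 7.50 on the DKO Dex+ arrays. It was 2.16 ± 0.59 lower in DKO than in WT Dex+ cells on the log2 scale (adjusted p = 0.018), a call that was lost without any 1 of the 4 arrays, with adjusted p values between 0.0638 and 0.109. Its DKO fall with Dex, -2.51 ± 0.59, was not called without DKO Dex+ replicate 1 (-2.35, adjusted p = 0.056), and its WT rise in culture, 2.19 ± 0.59, was not called without WT Flk1+ replicate 2 (0.76) or WT Dex- replicate 1 (2.08).

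From ES cells to primitive endoderm 1 collagen rose and 1 fell in WT cells, beside 7.68% and 6.55% of all genes, and 3 rose and 2 fell in DKO cells, beside 8.13% and 8.18%. The second collagen that fell in DKO cells was Col5a2. It was at 7.31 and 7.86 on the DKO ES arrays and at 5.13 and 5.03 on the DKO primitive endoderm arrays, while the WT arrays were at 5.72 and 5.73 and at 4.94 and 5.37. In ES cells it was 1.86 ± 0.59 higher in DKO than in WT cells, which was not called (adjusted p = 0.154) and was called with the replicate block (adjusted p = 0.0188). With both genotypes fitted as planned no collagen was called in ES cells, beside 1.12% of all genes higher and 0.269% lower in DKO cells. There 4 of 36 collagens had an unadjusted p below 0.05, beside 2122 of all 18194 genes.

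Col8a2, the partner chain of Col8a1, was raised in WT Dex- cells alone. It was at 5.85 and 7.94 on those arrays and between 3.81 and 4.91 on the other 18. It was the only collagen called between the genotypes without Dex, at -2.25 ± 0.44 in DKO cells (adjusted p = 0.00351), with none higher, beside 2.34% of all genes lower and 3.51% higher. With the replicate block there were 3, since Col18a1 at -1.20 and Col5a2 at 1.54 were added (adjusted p = 0.0225 and 0.0136). The 2 WT Dex- arrays of Col8a2 were over 2 log2 units apart, and on the 2 scan days the genotypes differed by -0.95 and -3.56. The fall with Dex in WT cells, -2.18 ± 0.44, was not called without WT Dex- replicate 2, at -1.14 with an adjusted p of 0.0572, nor without WT Dex+ replicate 2, at -2.02 with an adjusted p of 0.142.

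The other 19 collagens are given by their range. For the 17 never called, the range of the 10 group means ran from 0.24 to 0.97 log2 units, and the group means lay between 3.11 and 7.94. They include the cartilage chains Col2a1, Col9a1, Col9a2, Col9a3 and Col11a2, the hypertrophic cartilage collagen Col10a1, the type VI chains Col6a4 and Col6a5, the basement membrane collagen Col15a1 and the hemidesmosome collagen Col17a1. Without a detection limit, it cannot be said which of them were expressed. Col26a1 was called once, higher in WT Flk1+ mesoderm than in ES cells by 1.08 ± 0.22, and at 0.80 without WT Flk1+ replicate 1 (adjusted p = 0.0249). Col6a3, given above, was the other collagen called once, and its group means ran from 5.04 to 6.96. The choice of probe set mattered for some of the 17. For Col9a1 the one used here had group means between 6.56 and 7.2, while a second had a mean of 6.92 in DKO Flk1+ mesoderm, 4.64 in WT Flk1+ mesoderm and between 3.52 and 3.92 elsewhere. The group means of a second probe set ran from 3.91 to 5.53 for Col25a1 and from 4.48 to 5.96 for Col19a1.

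The genes that make, export, process, bind and break down collagen were described from 9 lists with 82 measured genes, in DKO mesoderm with Dex. Of 17 genes for enzymes and chaperones that modify or fold the chains 7 rose, none fell and 10 were not called in DKO cells with Dex, where 4.64% of all genes rose and 4.99% fell, the background for each list below, with a list median of 0.74 against 0.013 over all genes, and none was called in WT cells. The difference of the responses was called for 5. P4ha2, a prolyl 4-hydroxylase subunit, was at 10.54 and 10.45 without and at 12.78 and 12.98 with Dex in DKO cells, and between 10.64 and 10.93 on the 4 WT arrays. Its responses differed by 2.26 ± 0.47. Those of the prolyl 3-hydroxylase P3h2 differed by 1.75 ± 0.28, those of the galactosyltransferase Colgalt1 by 2.11 ± 0.32, those of P4ha1 by 1.35 ± 0.33 and those of the lysyl hydroxylase Plod3 by 1.47 ± 0.37. The call of P4ha1 did not hold without any of 5 single arrays of the 8, and that of Plod3 without any of 6. In primitive endoderm of both genotypes P4ha2 was at 12.04 or above.

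Of the 6 export genes 1 fell in DKO cells with Dex. Creb3l1, a membrane-bound factor that drives collagen secretion genes, fell by 1.30 ± 0.26 on the log2 scale, and the responses of the genotypes to Dex did not differ by a called amount (-0.62). Creb3l2, its relative, was 1.76 ± 0.30 higher in DKO than in WT Dex+ cells and 1.63 ± 0.30 higher without Dex, and its responses to Dex differed by 0.13, which was not called. The cargo receptor Mia3 was not called, at 0.62.

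Of the 6 measured genes for propeptide removal 3 fell and 1 rose. Tll1, a BMP1-like protease, was at 6.31 and 6.11 without and at 4.08 and 3.80 with Dex in DKO cells, while in WT cells it went from 5.46 and 6.23 to 6.93 and 8.47. It fell by 2.27 ± 0.36 in DKO cells on the log2 scale. The WT change of 1.85 ± 0.36 was called, but not without WT Dex- replicate 1 (1.47, adjusted p = 0.142) or WT Dex+ replicate 2 (1.08, adjusted p = 0.0972), nor with only the groups compared (adjusted p = 0.23). The responses differed by -4.12 ± 0.51 (adjusted p = 0.000135). Bmp1, the C-propeptide protease, and Adamts3, an N-propeptidase, had response differences of -1.44 ± 0.38 and -1.81 ± 0.40, and that of Bmp1 was not called without any of 6 single arrays of the 8, nor that of Adamts3 without DKO Dex- replicate 1, at an adjusted p of 0.05. Pcolce, an enhancer of BMP1, fell by 1.18 ± 0.34 on the log2 scale and Pcolce2 rose by 1.98 ± 0.36, without a called difference between the responses. The fall of Pcolce was not called without DKO Dex- replicate 2 or either DKO Dex+ array, with adjusted p values between 0.0939 and 0.158.

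Of the 4 measured crosslinking genes 2 fell, the lysyl oxidases Loxl1 and Lox. Loxl1 was at 8.66 and 8.46 without and at 5.25 and 5.07 with Dex in DKO cells, and at 10.38 and 10.44 and then 9.84 and 9.13 in WT cells. The responses differed by -2.48 ± 0.51 for Loxl1 and by -2.07 ± 0.39 for Lox. Loxl4 was not called, at -0.38.

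Among 10 leucine-rich proteoglycans of fibrils 2 fell. Bgn, biglycan, was at 10.94 and 11.45 without and at 7.14 and 6.95 with Dex in DKO cells. The WT arrays were at 8.14 and 8.10 and then 7.19 and 7.45. The genotypes thus differed without Dex, while with Dex the difference of -0.28 was not called. The responses of Bgn differed by -3.35 ± 0.32. Dcn, decorin, fell by 1.39 ± 0.27 on the log2 scale, and Lum was not called, at -0.45.

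Of 10 collagen receptors 4 fell in DKO cells with Dex and none rose. The response differences were -2.82 ± 0.49 for the uptake receptor Mrc2 and -3.27 ± 0.48 for the integrin subunit Itga1. The tyrosine kinase Ddr1 fell by 2.26 ± 0.59 on the log2 scale, with no called difference of responses (-2.31, adjusted p = 0.13), and this fall was not called without either DKO Dex- array or DKO Dex+ replicate 1 (adjusted p from 0.0595 to 0.119).

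Of 10 genes for collagen breakdown and its inhibitors 3 fell and none rose. Mmp2, the gelatinase A, was at 12.54 and 12.71 without and at 6.39 and 5.98 with Dex in DKO cells, and at 12.60 and 12.75 and then 11.86 and 11.78 in WT cells. The DKO arrays with Dex lay over 5 log2 units below all others of the 8, and the responses differed by -5.59 ± 0.34 (adjusted p = 1.5e-07). The differences were -1.96 ± 0.42 for Mmp14, the membrane protease that activates Mmp2, and -2.87 ± 0.33 for the inhibitor Timp3.

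Of 13 transcription factors and signals that act on collagen genes 4 fell and 1 rose in DKO cells. Tgfb3, a TGF-β ligand, fell by 4.22 ± 0.23 in DKO and by 1.26 ± 0.23 in WT cells on the log2 scale, and the responses differed by -2.96 ± 0.33. The WT fall was not called without WT Dex- replicate 1 (-1.19, adjusted p = 0.0755) or WT Dex+ replicate 2 (-1.24, adjusted p = 0.0677). Tgfb2 fell by 3.76 ± 0.85 in DKO cells, with a difference of -3.22 that was not called (adjusted p = 0.144), and the fall was not called without DKO Dex+ replicate 2 (-3.27, adjusted p = 0.0614). Smad3, the signal carrier below their receptor, fell by 1.20 ± 0.26. The responses of Twist1 differed by -1.96 ± 0.48, from 1.04 in WT to -0.92 in DKO cells, neither of which was called, and the call of the difference was lost without any of 5 single arrays of the 8.

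Type IV collagen split into its chains. Col4a2, whose chain pairs with that of Col4a1 in basement membranes, rose by 1.72 ± 0.29 in DKO cells with Dex, to 13.52 and 13.72, close to the 13.79 and 14.03 of DKO primitive endoderm. Col4a1 was at 13.60 and 13.49 without and at 14.36 and 14.46 with Dex in DKO cells, a rise under 2-fold. Col4a5 fell by 3.21 ± 0.66 on the log2 scale, and over the 20 arrays it was the gene most like Col1a2. The responses differed by 1.59 ± 0.42 for Col4a2, -1.09 ± 0.21 for Col4a6 and -2.91 ± 0.94 for Col4a5, which was not called. The call of Col4a2 was lost without any of 6 single arrays of the 8 and that of Col4a6 without any of 3.

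**Figure D5:**
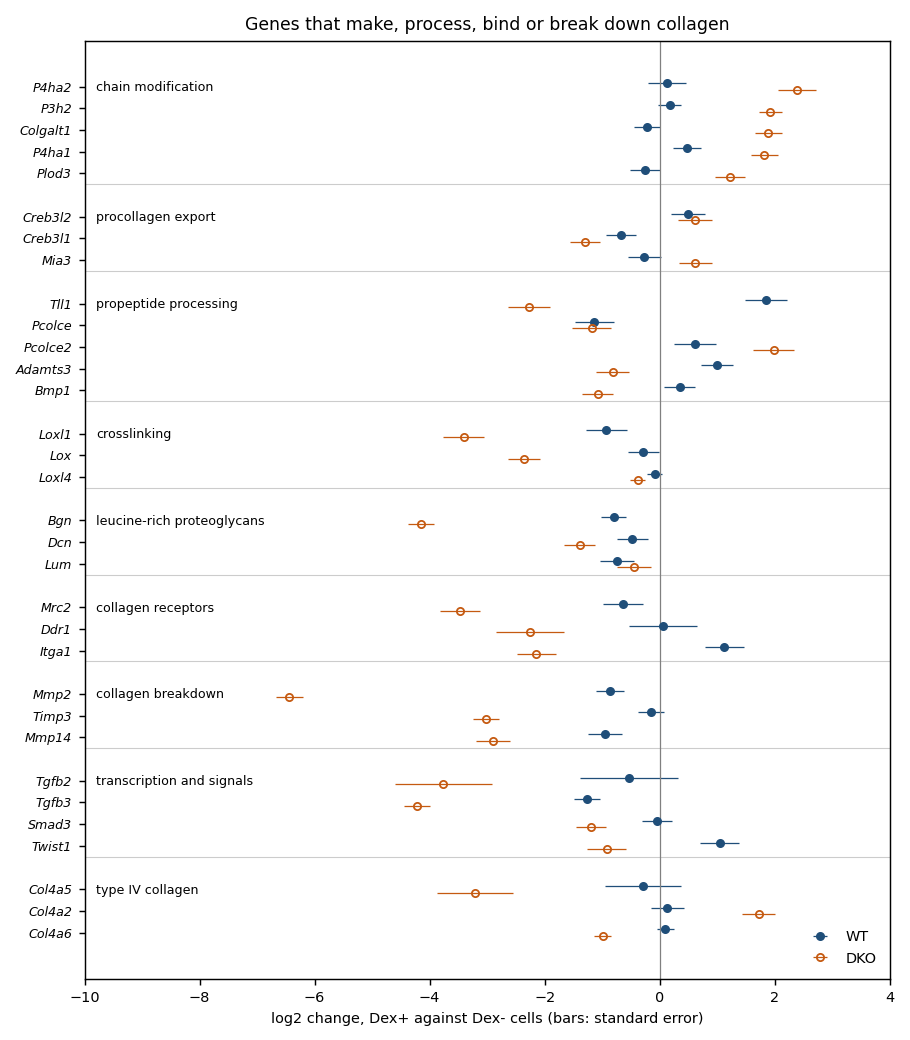
Log2 change with Dex in sorted mesoderm (horizontal axis) for 32 named genes of 9 collagen pathway lists (vertical axis), with WT filled, DKO open and standard errors as bars. The 5 named chain-modifying enzymes lie to the right in DKO cells, P4ha2 at 2.39, while Mmp2 lies farthest to the left, at -6.44.

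Marker lists of other cell types also changed with Dex, some upward and some downward. In DKO cells with Dex, where 4.64% of all genes rose and 4.99% fell, 6 of 8 primitive endoderm markers rose and none fell, and the mean of the list was between 8.58 and 8.86 without and between 11.54 and 11.64 with Dex, against 11.83 to 12.16 in primitive endoderm of both genotypes. Of 6 smooth muscle or mural cell markers 5 fell, the list mean being between 10.16 and 10.68 without and between 8.37 and 9.04 with Dex. Of 6 fibroblast markers 3 fell, with Postn and Pdgfrb among them. The mean of all 6 was between 7.2 and 7.37 without and between 5.35 and 5.37 with Dex. In WT cells with Dex, where 1.15% of all genes rose and 0.451% fell, 2 of 8 primitive endoderm markers rose and no smooth muscle or fibroblast marker was called. Of the other lists in DKO cells with Dex, 3 of 5 cardiac markers rose, 1 of 6 ES cell, 1 of 5 endothelial and 1 of 5 haematopoietic markers rose, 1 of 5 nascent mesoderm markers rose and 1 fell, and none of 6 cartilage or bone markers was called. The cardiac rise was not particular to DKO cells. In WT cells the cardiac list mean was between 5.94 and 6.01 without and between 7.84 and 8.02 with Dex. In DKO cells it was between 6.43 and 6.69 and between 8.6 and 8.82. The group means of Pdgfra and Tek were also higher with Dex in WT cells, at 9.05 against 6.66 and at 10.81 against 9.02. Type IV collagen Col4a1 is in the primitive endoderm list and Dcn in the fibroblast list. The part of a change in cell composition in the collagen results was not tested.

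The genes most like Col1a1 over the 20 arrays, as a description, were Ccn4 (Pearson r = 0.992), Dlk1 (0.989), Synpo (0.987), Crispld2 (0.985) and Osbpl5 (0.983). Those most like Col1a2 were Col4a5 (0.994), Vcl (0.981), Col8a1 (0.981), Klhl30 (0.979) and Ccn4 (0.978). The 20 arrays fall into 10 groups, and these values mostly order genes by how high they were in Dex- and WT Dex+ cells. Within the family the values with Col1a1 were highest for Col8a1 (0.982), Col5a1 (0.977), Col11a1 (0.974), Col3a1 (0.970), Col1a2 (0.966), Col12a1 (0.949) and Col5a2 (0.926), and lowest for Col13a1 (-0.409), Col23a1 (-0.386) and Col27a1 (-0.342).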

How the data were processed

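RNA of 20 samples was hybridised to Affymetrix MOE430v2 arrays, and the deposited values are log2 probe set levels made by the authors with RMA in Bioconductor, whose version is not given in the sources used here. Probe sets were named from the platform annotation: 34958 of 45101 had 1 symbol, 932 had several and 9211 had none. Each of 18194 genes was read from its brightest probe set by mean over all arrays; 22 of the 36 collagens had more than 1 of their 70 probe sets.

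All 20 arrays entered 1 linear model whose terms were the 10 group means (limma 3.58.1, R 4.3.3, empirical Bayes, 10 residual and 4.54 prior degrees of freedom), where the methods of the study name SAM without settings. The script was tested on simulated data. The number of arrays limits the precision; per the labels each pair of arrays holds biological replicates, from independent experiments by the methods. There were 15 planned comparisons, and 4 were added after the values were seen. The members, the 9 pathway lists and the marker lists were chosen with earlier results of these data known. Collagens were described in full when called in 3 or more planned comparisons or in 1 between genotypes. From each pathway list the 3 genes with the largest change with Dex in DKO cells or between genotypes with Dex were named, and every gene with a called difference of responses; this rule was not applied to the marker lists, which are given by counts.

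Arrays of the same replicate number in WT and DKO cells of a state deviated together (correlations of 0.19, 0.36, 0.311, 0.175 and 0.282 in ES cells, primitive endoderm, Flk1+, Dex- and Dex+ cells), so a block for state and number was an alternative; across states the range was -0.262 to 0.361. Scan days were read from the experiment information in the files. Probe set, filter, normalization, block and array choices were varied, as given at the end.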

Additional observations from a re-analysis of the deposited data

Results flagged for a closer look

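For 10 collagens the responses to Dex of DKO and WT mesoderm differed by their own test, as DKO minus WT log2 change. The values were -5.06 for Col1a1, -2.65 for Col1a2, -4.25 for Col3a1, -3.06 for Col5a1, -4.51 for Col5a2, -1.84 for Col7a1, -4.86 for Col8a1, -5.10 for Col11a1, -1.62 for Col12a1 and 2.20 for Col27a1. The call of Col1a2 was lost without any single array and that of Col3a1 without WT Dex- replicate 1.

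The step from ES cells to primitive endoderm differed between the genotypes for Col6a1 by 1.60 and for Col6a2 by 2.01. The genotype effect in primitive endoderm minus that in Dex+ cells was 5.73 for Col1a1, 3.64 for Col1a2, 4.98 for Col3a1, 4.17 for Col5a1, 2.90 for Col5a2, 2.95 for Col6a1, 2.19 for Col6a2, 1.21 for Col7a1, 5.2 for Col8a1, 5.47 for Col11a1, 1.01 for Col12a1 and -1.72 for Col27a1. Apart from Col6a1 and Col6a2, their genotype effects in primitive endoderm itself lay between -0.24 for Col3a1 and 0.69 for Col5a1. For these the values mostly repeat the genotype difference in Dex+ cells with its sign turned, and they are not a separate test. The step likewise shares the primitive endoderm arrays by which Col6a1 and Col6a2 were picked. Both tests were added after the values were seen, and the call of Col5a2 in the second was lost without any single array, with adjusted p values between 0.0666 and 0.152. In the same test the call of Col12a1 was lost without any of 5 single arrays of the 8 (0.87 to 1.05, adjusted p from 0.051 to 0.0965) and that of Col7a1 without DKO primitive endoderm or DKO Dex+ replicate 2 (1.04 and 1.06, adjusted p = 0.0556 for both).

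Of the pathway genes, the responses to Dex differed upward in DKO cells for P4ha2 (2.26), Colgalt1 (2.11), P3h2 (1.75), Col4a2 (1.59), Plod3 (1.47) and P4ha1 (1.35). They differed downward for Mmp2 (-5.59), Tll1 (-4.12), Bgn (-3.35), Itga1 (-3.27), Tgfb3 (-2.96), Timp3 (-2.87), Mrc2 (-2.82), Loxl1 (-2.48), Lox (-2.07), Mmp14 (-1.96), Twist1 (-1.96), Adamts3 (-1.81), Bmp1 (-1.44) and Col4a6 (-1.09).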

How the results depend on the processing

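Of 337 called changes of the named genes, recomputed 5303 times in all, none changed direction; 4989 stayed called and 314 did not, 217 of these with 1 array left out and 41 with the mean over all probe sets. Of 304 recomputed counts of called collagens, 274 stayed within 1.5 times the value given. The others follow.

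Between genotypes in ES cells the count of 0 became 1 with the replicate block by state and number and 2 with only the groups compared. In Flk1+ mesoderm 0 became 1 with the mean over probe sets and 3 without both parental-line arrays, and leaving out 1 array gave 1 to 4. In Dex- cells 1 became 2 with the mean over probe sets, the scan day block or no fold threshold, 3 with the replicate block by state and number or only the groups compared, and 0 without the lowest 40% of genes, which leaves out Col8a2. WT primitive endoderm against ES cells went from 2 to 5 with no fold threshold, and DKO Flk1+ mesoderm against ES cells from 4 to 7 without both parental-line arrays and to 9 with no fold threshold. The WT response to Dex went from 2 to 1 with the scan day block and without the lowest 40% of genes, and leaving out 1 array gave 0 to 2. The genotype difference in the change during culture went from 0 to 1 with the mean over probe sets and to 5 without both parental-line arrays, and leaving out 1 array gave 0 to 5. DKO Dex+ cells against DKO Flk1+ mesoderm went from 7 to 4 without the lowest 40% of genes, and the genotype difference in the step to primitive endoderm from 2 to 4 with only the groups compared. The cause was not tested where the setting itself does not give it. The shares of all genes called under these settings are not given here. The moved counts therefore do not set the collagens apart from other genes.

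The replicate block by number alone changed 1 of the 337 calls, and the block by state and number none; the calls that the latter added within a state are given beside the results, and across states, where the numbers do not pair arrays, it also added Col1a1 in DKO Dex+ cells against DKO primitive endoderm (1.17, adjusted p = 0.0194), Col3a1 in WT Flk1+ mesoderm against ES cells (1.84, adjusted p = 0.0186) and Col18a1 in the WT response to Dex (-1.55, adjusted p = 0.019), among others. The scan day block could not be fitted for ES cells, all of whose arrays share a day of their own. With 1 array of a group left out, the remaining one is taken to vary like the other groups. All Dex+ arrays were scanned on 1 day, 2 arrays per group limit every value, and dim probe sets have no floor here.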
